A study of Mus musculus with 2 samples.

Results

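The cells described here are endothelial cells from the inner surface of the mouse aorta that were low for both of a pair of regional gene programs. They numbered 404 of the 4774 cell barcodes of the study. The first program is read from Adra2a, Coch, Sost, Tbx1 and Foxf2, and the second from Bcan, Isl1 and Frzb. A barcode counted as endothelial when at least 4 of Pecam1, Cdh5, Tie1, Egfl7, Cldn5, Ecscr, Esam and Eng were detected, when these outnumbered the detected genes among 8 fibroblast genes, and when fewer than 2 of Myh11, Cnn1 and Lmod1 were detected. Among endothelial barcodes with at least 3000 unique molecular identifiers (UMIs, which count captured transcripts), the members held at most 3 UMIs per 10000 of the 5 first-program genes together and no UMI of the 3 second-program genes. The members were thus chosen by measured UMIs of these cells, so what follows describes them and tests nothing. There were 137 members among 1014 such cells in the young library and 267 among 1973 in the old one.

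One droplet library was made per age from C57BL6/J mice, at 8 weeks (young) and 18 months (old). The labels name no treatment, transgene or sex, and no second library of either age. The aorta was freed of its outer layer, the lining was loosened with trypsin for 10 minutes and scraped off, and 8700 cells were loaded per library with 5000 targeted. With 1 library per age no difference has a replicate check, no test was made, and the 95% intervals cover counting error only. The young library held 1366 barcodes (median 7558.5 UMIs) and the old library 3408 (median 4737 UMIs), and 11 barcode sequences occurred in both libraries.

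The endothelium of the aorta is a single layer that senses flow, limits clotting and helps to maintain the elastic wall. Endothelial cells of curved, straight and branching stretches of an artery meet different flow, and they differ in the genes they express. Adra2a is an adrenergic receptor, Coch a secreted matrix protein, Sost and Frzb are secreted Wnt antagonists, Bcan is a matrix proteoglycan, and Tbx1, Foxf2 and Isl1 are developmental transcription factors. The genes named as markers of the members are Nkx2-3, a homeobox transcription factor known from the vessels of the gut and spleen, Mal, a membrane raft proteolipid, Ifitm10, a relative of the interferon-induced transmembrane proteins, and Dll1, a Notch ligand.

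On the GRCm38 assembly Nkx2-3 lies at chr19:43612325-43615892 on the + strand, Mal at chr2:127633226-127656695, Ifitm10 at chr7:142325837-142373753 and Dll1 at chr17:15367354-15376872, the last 3 on the - strand. The RefSeq GRCm38.p6 sequences of the 250 bases before a start site are shown for the 3 of these genes whose levels differed most between cells of the 2 programs in the data below. Capitals mark AAGTG, the core of the sequence bound by NKX2 factors, or TGGGAA, the core bound by the Notch effector RBPJ, on either strand (read as CACTT and TTCCCA on the reverse strand). The Nkx2-3 window (chr19:43612075-43612324, + strand), the Mal window (chr2:127656696-127656945, - strand) and the window of 1 of the 3 Ifitm10 starts (chr7:142373747-142373996, - strand) read as follows, each 5′ to 3′ on the strand of its gene.
Nkx2-3: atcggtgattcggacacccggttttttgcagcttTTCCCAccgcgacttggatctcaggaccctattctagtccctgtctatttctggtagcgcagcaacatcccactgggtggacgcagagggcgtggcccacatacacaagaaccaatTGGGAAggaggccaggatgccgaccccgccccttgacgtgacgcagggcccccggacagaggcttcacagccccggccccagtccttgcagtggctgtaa
Mal: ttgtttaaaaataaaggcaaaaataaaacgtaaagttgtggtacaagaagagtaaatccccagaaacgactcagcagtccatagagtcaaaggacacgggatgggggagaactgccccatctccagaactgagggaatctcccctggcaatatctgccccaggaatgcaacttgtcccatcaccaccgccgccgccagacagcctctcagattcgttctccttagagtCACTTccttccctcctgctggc
Ifitm10: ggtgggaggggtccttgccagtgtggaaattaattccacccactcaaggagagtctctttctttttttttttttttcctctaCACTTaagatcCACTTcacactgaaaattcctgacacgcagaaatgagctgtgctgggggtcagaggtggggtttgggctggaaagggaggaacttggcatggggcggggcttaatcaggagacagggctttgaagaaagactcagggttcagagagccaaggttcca
The Nkx2-3 window held 2 matches to TGGGAA and none to AAGTG. The Mal window held 1 match to AAGTG, and the Ifitm10 window held 2, both of which also fit the longer form TNAAGTG, in which AAGTG is contained. The other 2 Ifitm10 windows held no match to these motifs, and 1 of the 2 Dll1 windows held 1 AAGTG. Of 32851 windows of the same length before RefSeq starts, 40.7% held AAGTG, 10.1% TNAAGTG and 21.6% TGGGAA, so such matches are common and mark no site.

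The label under which these cells were proposed calls them endothelium without either regional program. The genes of the rule are low in members by choice and say nothing about that label. Other genes of the programs, described below, mostly stood between the programs in members. They were picked in these same cells as far apart between the programs, so their levels describe members and do not test the label. Levels below are given as CPM, the UMIs of a gene summed over a group of cells, per 1000000 UMIs of that group. Adra2a had 42.5 CPM in young members and 44.1 CPM in old ones, against 569 and 535 CPM in cells of the first program only, a difference that the rule sets. Bcan, Isl1 and Frzb were at 0 in members, as the rule requires. The 8 endothelial genes that the rule counts summed to 8397 CPM in young members and 8286 CPM in the other young endothelial cells, and to 8265 and 8179 CPM in old. Pecam1, an adhesion molecule of endothelial junctions, stood at 3739 CPM in young members and 3750 CPM in the other young endothelial cells, and at 3321 and 3455 CPM in old. Cdh5, the cadherin of those junctions, stood at 406 and 403 CPM in young and 387 and 371 CPM in old. Of the other 6, Cldn5 was higher in members in both libraries, as given below. Eng, a co-receptor of TGF-beta, was lower in old members, at 279 against 351 CPM (353 against 393 CPM in young, within counting error), as was Tie1, a receptor kinase of endothelium, at 269 against 314 CPM (327 against 322 CPM in young). These values leave out barcodes that carried blood or immune genes, as set out below.

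Members made up a larger share of cells with few UMIs than of cells with many. They were 13.5% of endothelial cells of 3000 or more UMIs in young (exact 95% interval 11.5 to 15.8%) and 13.5% in old (12.1 to 15.1%). Among cells with 3000 to below 5000 UMIs they were 57 of 197 in young (28.9%) and 155 of 697 in old (22.2%). Among cells with 8000 UMIs or more they were 26 of 491 in young (5.30%) and 29 of 637 in old (4.55%). The median member held 6073 UMIs and 2309 genes in young and 4632 UMIs and 1942 genes in old, while the median other endothelial cell held 8403 UMIs and 2907 genes in young and 6578.5 UMIs and 2580.5 genes in old. Mitochondrial UMIs made up 2.44% and 2.78% of members' UMIs and 2.13% and 2.73% of those of the other endothelial cells.

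**Figure D1:**
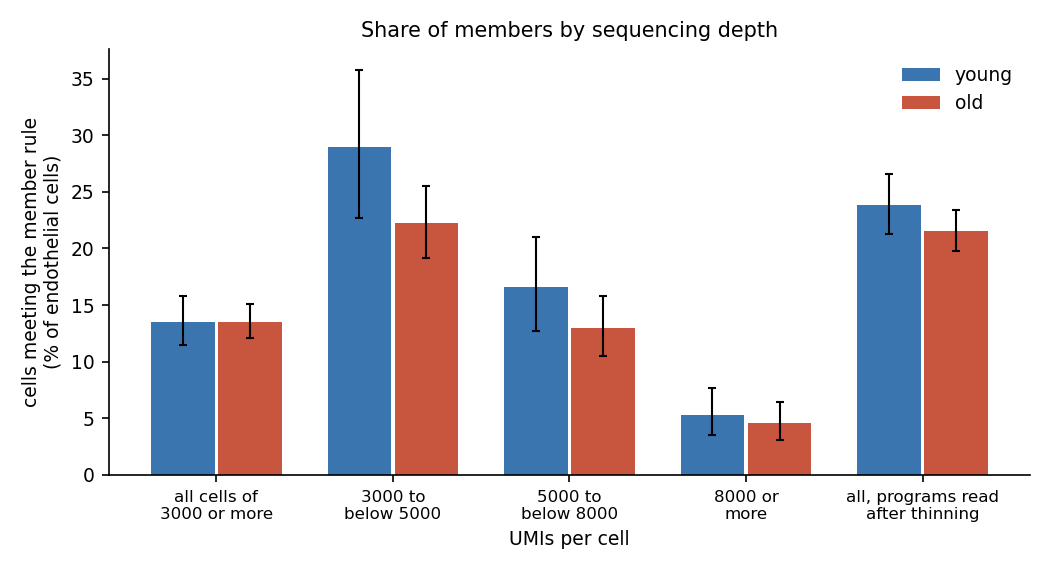
Share of endothelial cells that met the member rule (vertical axis, percent) in each range of UMIs per cell, for the young (blue) and old (red) library, with exact 95% intervals for counting error. The share went from 28.9% and 22.2% in the shallowest cells to 5.30% and 4.55% in the deepest, and was 23.9% and 21.5% when the programs were read after every cell was thinned to 3000 UMIs.

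Thinning, that is drawing 3000 UMIs at random from each cell, brought cells of the second program under the rule more often than cells of the first. Of cells with second-program UMIs only, 100 of 382 young (26.2%, 21.8 to 30.9%) and 177 of 1058 old cells (16.7%, 14.5 to 19.1%) met the rule for members once thinned. Of cells of the first program only, 19 of 310 (6.13%) and 10 of 247 (4.05%) did, and of cells with both programs 4.86% and 4.49%. At equal depth the rule therefore also took in cells that it had placed with the second program at full depth.

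A second feature set members of the old library apart: some carried genes of blood or immune cells. Barcodes were called marked when they held at least 10 UMIs per 10000 of the macrophage, lymphocyte or platelet genes, or 100 of the erythroid genes. Of the 267 old members, 38 were marked (14.2%, 10.3 to 19.0%), against 31 of 1706 other old endothelial cells (1.82%, 1.24 to 2.57%). In young, 2 of 137 members (1.46%) and 7 of 877 others (0.80%) were marked. The 38 old barcodes included 25 marked by macrophage genes, 11 by erythroid, 8 by platelet and 2 by lymphocyte genes, some by more than 1 list. The 2 young barcodes were marked by lymphocyte genes.

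**Figure D2:**
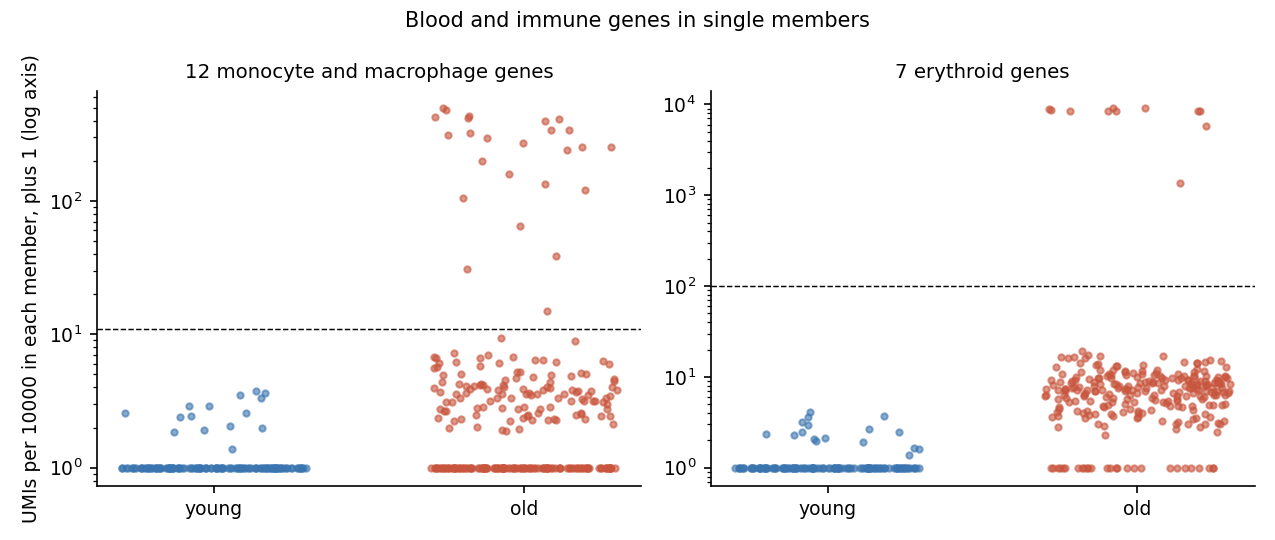
UMIs per 10000 plus 1 (log axis) of the 12 monocyte and macrophage genes (left) and of the 7 erythroid genes (right) in each member, 1 point a cell, young in blue and old in red, with the limit for a marked barcode as a dashed line. For the erythroid genes old members fell into separate clouds: the lowest marked member held 1368 UMIs per 10000 and the highest unmarked member 18.4. For the macrophage genes no clear gap lay at the limit, with 13.9 UMIs per 10000 in the lowest marked and 8.37 in the highest unmarked member. The limits were set after the levels were seen.

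Summed over all members, the macrophage list had 19.2 CPM in the young library and 2912 CPM in the old one, against 261 and 309 CPM in the other endothelial cells, and the erythroid list had 19.2 and 33580 CPM, against 244 and 1643 CPM. Without marked barcodes the macrophage list had 18.9 CPM in young members and 142 CPM in old ones, 13.4 and 131 CPM in the other endothelial cells, and 11.9 and 127 CPM in fibroblast barcodes. The erythroid list then stood at 18.9 and 593 CPM in members, 25.8 and 544 CPM in the others, and 25.9 and 588 CPM in fibroblast barcodes, near each other in all 3 kinds of cell within a library. Whether a marked barcode held a doublet or an immune cell with endothelial RNA was not tested. Values from here on leave out marked barcodes, a choice made after seeing the data, which kept 135 young and 229 old members beside 870 and 1675 other endothelial cells. The 11 fibroblast genes summed to 1380 and 1309 CPM in members, 1077 and 1154 CPM in the other endothelial cells, and 51051 and 30707 CPM in fibroblast barcodes. The 10 smooth muscle genes summed to 430 and 604 CPM in members and 425 and 431 CPM in the other endothelial cells, and Acta2, the smooth muscle actin, made up most of the difference in old (348 against 185 CPM), while Cnn1 and Des were at 0 in members of both libraries. The 8 mesothelial genes summed to 159 and 204 CPM in members and 139 and 145 CPM in the others, almost all of it from Krt18, a keratin of simple epithelia, and Msln, Upk3b, Upk1b, Wt1, Lrrn4 and Krt8 were at 0 in members. The adipocyte list was at 0 in members and in the others.

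Of the 4 genes named as markers, none was higher in members than in cells of the second program in both libraries beyond its counting interval. Nkx2-3 stood at 99.2 CPM in young members (79.1 to 123), between 18.2 CPM in cells of the first program and 159 CPM in cells of the second. In old it stood at 175 CPM in members (153 to 201), 44.7 CPM in cells of the first program and 216 CPM in cells of the second. Mal followed the same order, at 64.9 CPM in young members (48.9 to 84.5) against 18.5 and 74.1 CPM, and at 123 CPM in old members (104 to 145) against 65.0 and 140 CPM. Both genes were higher in members than in cells of the first program in each library, with intervals apart. Nkx2-3 was lower than in cells of the second program in each library, while the intervals of Mal overlapped there.

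Ifitm10 stood at 40.2 CPM in young members (27.8 to 56.1), beside 13.5 CPM in cells of the first program and 38.2 CPM in cells of the second. In old it stood at 61.5 CPM in members (48.3 to 77.2), beside 33.5 and 51.6 CPM. Its intervals in members and in cells of the second program overlapped in both libraries. Dll1 stood at 75.6 CPM in young members (58.2 to 96.5), beside 56.7 and 57.5 CPM. In old members it stood at 48.2 CPM (36.6 to 62.3), beside 49.2 and 60.4 CPM, so its order differed between the libraries. The intervals of Dll1 in members overlapped those in cells of either program in both libraries, so neither order went beyond counting error.

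**Figure D3:**
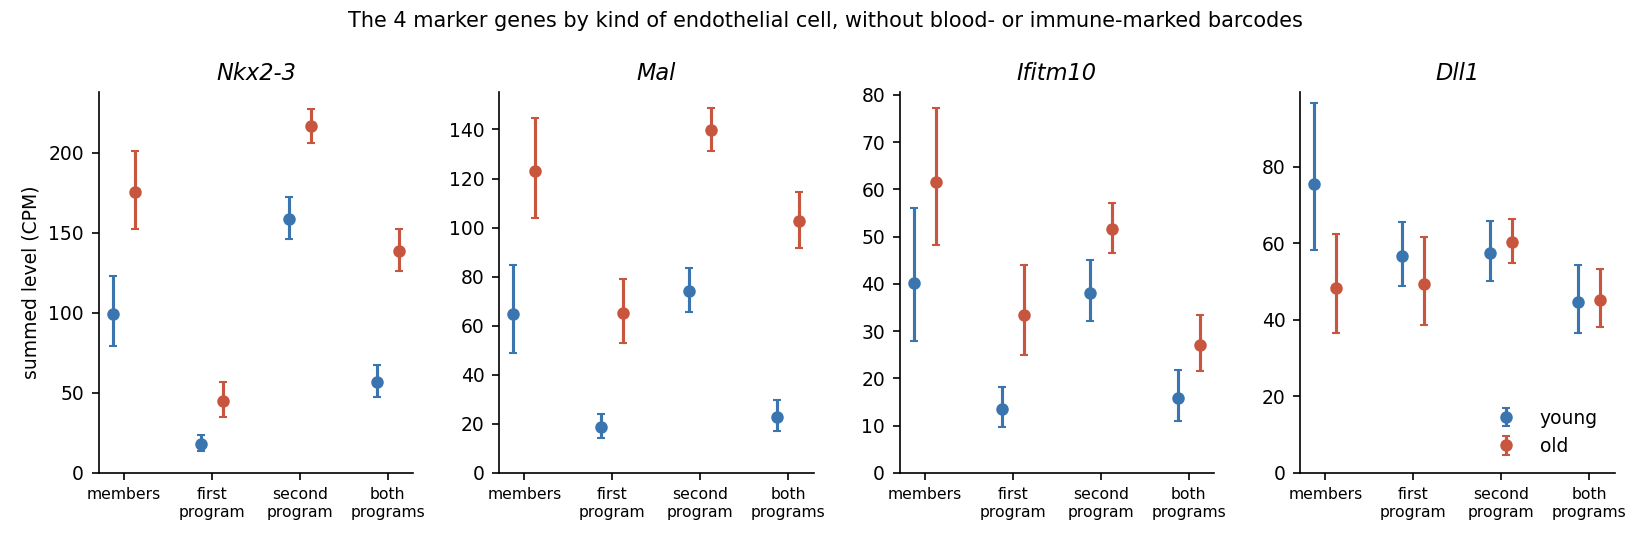
Level of Nkx2-3, Mal, Ifitm10 and Dll1 (CPM, one vertical axis per gene from 0) in members and in the other kinds of endothelial cell, young in blue and old in red, with exact 95% Poisson intervals. Nkx2-3 and Mal stood between cells of the first and the second program in both libraries, at 99.2 and 64.9 CPM in young members and 175 and 123 CPM in old members.

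Most members held few UMIs of these genes. With each cell thinned to 3000 UMIs, 55 of 135 young members (40.7%, 32.4 to 49.5%) and 78 of 229 old members (34.1%, 27.9 to 40.6%) had none of the 4, against 71.6% and 57.0% of cells of the first program and 39.8% and 27.6% of cells of the second. No thinned member had all 4, which allows a share of up to 2.70% in young and 1.60% in old. Unthinned, Nkx2-3 was detected in 42.2% of young and 54.6% of old members, and in 1.34% and 6.13% of fibroblast barcodes, a cell type that should lack it, whose median depths of 8560.5 and 5145 UMIs were above those of members.

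Members with and without a UMI of Nkx2-3 differed in other genes. In old members with Nkx2-3, Mal stood at 163 CPM against 70.6 CPM without (log2 ratio 1.21, 0.66 to 1.79), and Fbln5, an elastic fibre protein, at 258 against 452 CPM (log2 ratio -0.81). In young members Mal stood at 62.3 and 67.0 CPM (log2 ratio -0.10, -0.94 to 0.71) and Fbln5 at 802 and 982 CPM (log2 ratio -0.29). Stmn2, a microtubule-binding protein, was lower with Nkx2-3 in both libraries, at 241 against 454 CPM in young and 296 against 491 CPM in old. Cldn5, a tight junction protein, was also lower with Nkx2-3, at 678 against 1515 CPM in young and 1066 against 1426 CPM in old. The young and old members therefore shared the lower Stmn2, Fbln5 and Cldn5 of Nkx2-3 cells, while the higher Mal was seen in the old library and not beyond counting error in the young one.

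Just across the first-program limit the values did not move the same way in both libraries, but in the next range of scores they did. Members with a first-program score above 2 and up to 3, just inside the limit, were 25 in young and 51 in old, with Fbln5 at 1149 and 530 CPM and Nkx2-3 at 72.5 and 107 CPM. The 21 and 24 cells above 3 and up to 4, just outside, had Fbln5 at 1524 and 434 CPM and Nkx2-3 at 12.4 and 118 CPM. From inside to outside, Fbln5 was thus higher in young and lower in old, and Nkx2-3 lower in young and slightly higher in old. These levels rest on few cells and were given no interval. In the 45 and 38 cells above 4 and up to 6, Fbln5 stood at 1665 and 1066 CPM and Nkx2-3 at 58.6 and 47.2 CPM. In that range Fbln5 was higher and Nkx2-3 lower than just inside the limit in both libraries. Cells at or under the limit with 1 UMI of Bcan, Isl1 or Frzb, 129 in young and 264 in old, had Nkx2-3 at 142 and 186 CPM, Mal at 83.8 and 149 CPM and Fbln5 at 603 and 290 CPM. These values include marked barcodes.

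Genes that part the 2 programs, other than the 8 of the rule, mostly stood between them in members. Of 8720 genes, 8 were at least 4-fold higher in cells of the first program in both libraries (0.0917%) and 17 at least 4-fold higher in cells of the second (0.195%). With marked barcodes these were 8 and 24 of 8800 genes (0.0909% and 0.273%). Of the 8, members lay between for 6 in young and 8 in old, and of the 17, for 14 in young and 17 in old. The genes were picked as 4-fold apart in these same cells, and their place was read from levels without intervals. Some rested on very few UMIs, such as Pxylp1 with 2 in young and 2 in old members. Tcf4, a transcription factor of the E protein class, stood at 83.8 CPM in young members, between 24.8 CPM in cells of the second program and 175 CPM in cells of the first, and at 77.3 CPM in old members, between 31.7 and 202 CPM. Igf2, an insulin-like growth factor, stood at 31.9 CPM in young members against 10.4 and 68.3 CPM, and at 47.4 CPM in old members against 30.1 and 144 CPM. G0s2, an inhibitor of triglyceride breakdown, stood at 105 CPM in young members, between 8.77 CPM in cells of the first program and 161 CPM in cells of the second, and at 112 CPM in old members, between 34.1 and 210 CPM. Pax9, a paired-box transcription factor, stood at 14.2 CPM in young members against 0.63 and 19.4 CPM, and at 18.3 CPM in old members against 3.28 and 27.3 CPM.

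On a linear scale that runs from 0% at the second-program level to 100% at the first-program level, the median first-program gene stood at 29.2% in young members and 21.9% in old ones. The median second-program gene stood at 38.02% and 55.6%. In young members the second-program genes were thus nearer to the level of the second program, and in old members they were about midway. The levels are averages over cells, so a mixture of cells of both kinds and cells of intermediate level cannot be told apart in them.

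**Figure D4:**
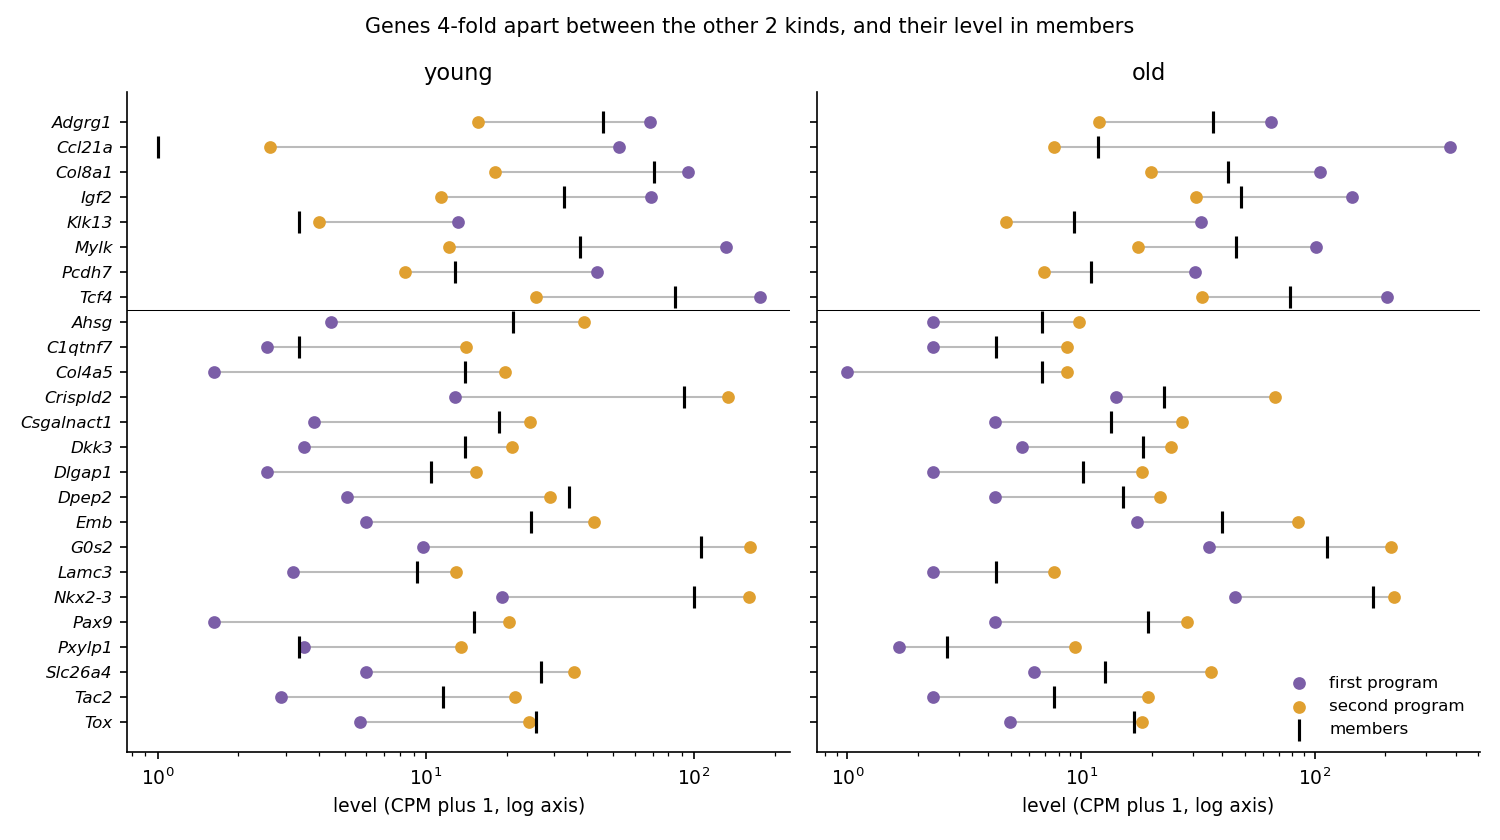
Level in members (black bar), in cells of the first program (purple) and in cells of the second (orange) for the 8 genes 4-fold higher in the first program (top) and the 17 genes 4-fold higher in the second (bottom), as CPM plus 1 on a log axis, young left and old right. Members lay between the points for 6 and 14 genes in young, and for 8 and 17 genes in old.

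Few genes were far from the other endothelial cells. With all members, 10 of 9590 genes with at least 50 UMIs in each library were at least 2-fold higher in both libraries (0.104%) and 13 were at least 2-fold lower (0.136%). The higher genes then included Coro1a, Fyb, Rac2 and Rgs10, which are genes of leukocytes. Without marked barcodes 4 of 9513 genes were 2-fold higher in both (0.042%) and 13 were 2-fold lower (0.137%). All of the 13 lower genes had at most 20 UMIs in members in each library, and for 2 of them, Ccl21a and Ppm1l, the intervals lay below 0 in both. The 4 higher genes were Hbegf, Nr4a2, Prelp and Gpha2, and the intervals of the first 3 lay above 0 in both libraries. For Nr4a2, 1 cell held 38.1% of the 21 UMIs of young members and 40% of the 10 of old members. For Prelp, 1 cell held 27.3% of 11 UMIs in young and 33.3% of 21 in old. The intervals do not cover such uneven spread between cells. The median log2 ratio over all 9513 genes was -0.0035 in young and -0.03 in old.

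Hbegf, a growth factor that binds the EGF receptor, stood at 42.5 CPM in young members against 17.8 CPM in the other endothelial cells (log2 ratio 1.25, 0.69 to 1.78), and at 32.4 against 13.4 CPM in old (1.27, 0.73 to 1.78). The 5 highest cells held 77.8% of its UMIs in young members and 43.6% in old. S100a4, a calcium-binding protein of motile and mesenchymal cells, stood at 80.3 against 41.2 CPM in young (0.96, 0.57 to 1.34) and 134 against 38.6 CPM in old (1.79, 1.53 to 2.06). In fibroblast barcodes S100a4 stood at 28.4 and 105 CPM. Col18a1, the source of endostatin, stood at 39.0 against 19.9 CPM in young and 51.5 against 20.05 CPM in old.

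Ly6a, the stem cell antigen Sca-1 found on many endothelial cells, was higher in members with its UMIs spread over most cells. It stood at 785 CPM in young members, detected in 77.0% of them, against 556 CPM in the others (log2 ratio 0.50, 0.38 to 0.61). In old members it stood at 1767 CPM, detected in 93.0%, against 956 CPM (0.89, 0.82 to 0.95). Fibroblast barcodes held 3186 and 2978 CPM of Ly6a, and 100% of them in each library had a UMI. Cldn5, which is among the endothelial genes that the rule counts, stood at 1150 against 921 CPM in young (0.32, 0.22 to 0.42) and 1223 against 912 CPM in old (0.42, 0.34 to 0.50), which lay between the 2 programs in old (1670 CPM in cells of the first, 702 CPM in cells of the second). With all members, the direction of Cldn5 turned in young when the programs were read after thinning (log2 ratio -0.11) and in old at a limit of 1 UMI per 10000 (-0.047).

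Pi16, a secreted peptidase inhibitor of adventitial fibroblasts, stood at 451 against 292 CPM in young (log2 ratio 0.63, 0.47 to 0.78) and 417 against 306 CPM in old (0.44, 0.31 to 0.58). Fibroblast barcodes held 10890 and 6774 CPM of it. Across the fibroblast list, 5 of 9 measured genes were higher in members in both libraries and none was lower in both, with a median log2 ratio of 0.34 in young and 0.05 in old, and the part of fibroblast RNA in these differences was not tested. Hspb1, a small heat shock protein, stood at 703 against 567 CPM in young (0.31) and 672 against 529 CPM in old (0.34), and in young its ratio was -0.029 with all members when the programs were read after thinning.

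Some of the highest ratios rested on very few cells. Fabp4, the fatty acid carrier of adipocytes and capillary endothelium (chr3:10204088-10208576, - strand), stood at 210 CPM in young members against 26.9 CPM in the others (log2 ratio 2.97, 2.68 to 3.25) and at 68.2 against 38.8 CPM in old (0.81, 0.46 to 1.16). Its UMIs came from 15 of 135 young and 20 of 229 old members, and the 5 highest cells held 89.3% and 79.3% of them. The water channel Aqp1 stood at 62.6 against 10.3 CPM in young and 39.1 against 25.4 CPM in old, and all of its young UMIs came from 5 members. The taurine carrier Slc6a6 stood at 40.2 against 4.48 CPM in young, with 91.2% of the UMIs in 5 cells, and at 46.6 against 24.9 CPM in old. For Serpina1b, a serine protease inhibitor, 5 young members held all 30 UMIs, and with all members its young ratio was -0.96 at a limit of 1 UMI per 10000. In young members the differences of these 4 genes thus rested on few cells, as did that of Fabp4 in old members. In old members Serpina1b was seen in 18 of 229 thinned cells, with at most 6 UMIs in a cell. With all members, the highest cell held 51.4% of the Slc6a6 UMIs in young and 19.5% in old.

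**Figure D5:**
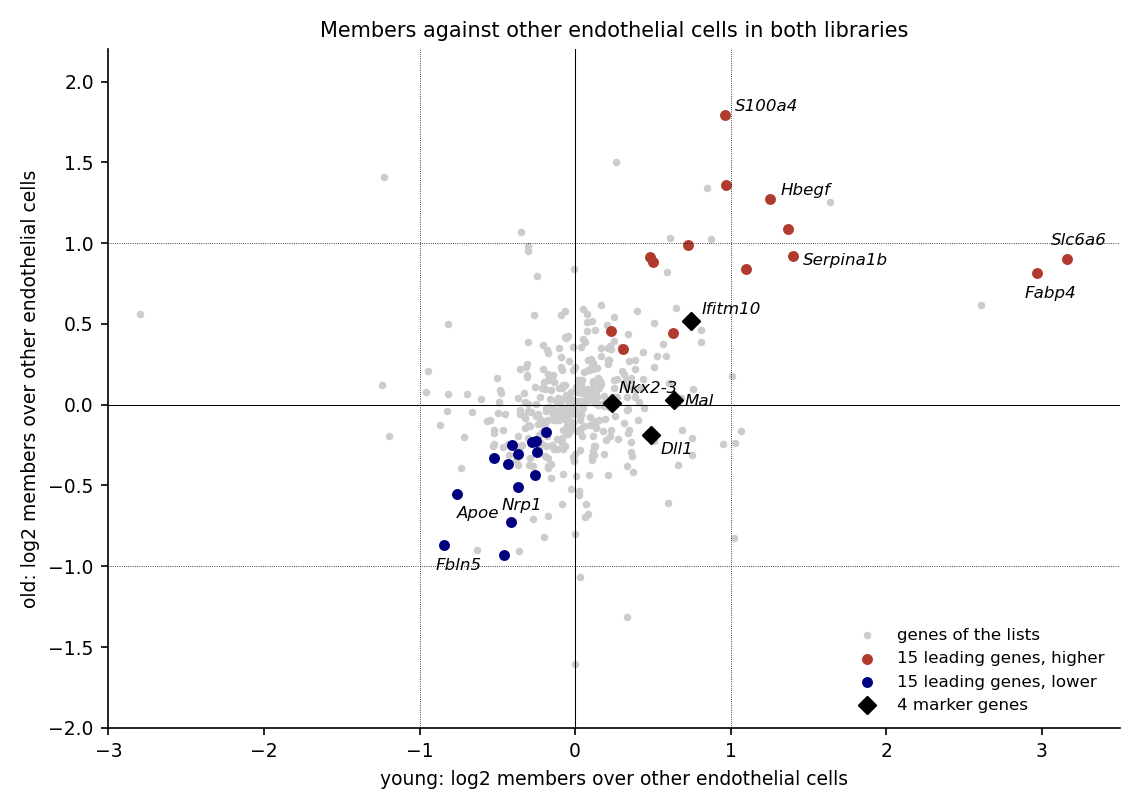
Log2 ratio of members over the other endothelial cells in young (horizontal) and old (vertical), without marked barcodes, for measured genes of the lists outside the rule (grey), the 15 leading genes each way (red and blue) and the 4 marker genes (black); dotted lines mark 2-fold, and Ccl21a and Tgfbi, at 0 in young members, are not drawn. Of the 4 marker genes Ifitm10 had the highest old ratio (0.52), and S100a4 (0.96 and 1.79) and Fbln5 (-0.84 and -0.87) stood far out on either side.

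Several products of arterial endothelium were among the lower genes, but arterial genes as a list were mixed. Of 18 measured, 6 were higher in both libraries and 9 lower, with median log2 ratios of -0.11 in young and -0.07 in old. Over all genes 23.8% were higher in both and 28.7% lower. Fbln5 (chr12:101746565-101819055, - strand) stood at 903 CPM in young members against 1619 CPM in the others (log2 ratio -0.84, -0.95 to -0.74) and at 343 against 625 CPM in old (-0.87, -1.01 to -0.72). The members stood nearer to cells of the second program (704 and 377 CPM) than to those of the first (2363 and 1370 CPM). Eln, the elastin that such fibres hold, stood at 1618 against 2325 CPM in young (-0.52) and 791 against 893 CPM in old (-0.17). Gkn3, a secreted gastrokine that marks arterial endothelium, stood at 1574 against 1880 CPM (-0.26) and 1353 against 1826 CPM (-0.43). Bmx, a tyrosine kinase of arterial endothelium, stood at 495 against 637 CPM (-0.36) and 415 against 513 CPM (-0.31). Each of these 4 genes was highest in cells of the first program, and members stood below the first-program level for all 4 in both libraries.

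Apoe and Vwf were lower in members than in cells of either program. Apoe, a lipid carrier protein, stood at 5073 CPM in young members against 6608 CPM in cells of the first program and 6115 CPM in cells of the second, and at 2323 CPM in old members against 3209 and 3712 CPM. Against all other endothelial cells its log2 ratio was -0.41 (-0.45 to -0.36) in young and -0.73 (-0.78 to -0.67) in old. Vwf, the platelet-binding glycoprotein that endothelium stores and releases, stood at 932 CPM in young members against 1138 and 1029 CPM, and at 923 CPM in old members against 1279 and 1074 CPM. Nrp1, a receptor of semaphorins and VEGF, stood at 466 against 603 CPM in the other endothelial cells in young (-0.37) and 387 against 549 CPM in old (-0.51). Ccl21a, a chemokine of lymphatic endothelium, had no UMI in young members against 19.0 CPM in the others, at least 5.37-fold lower against a floor of 3 counts. Of the others' Ccl21a UMIs 1 cell held 92.0% in young, so the young difference rested mostly on that cell outside the members. In old 1 cell held 46.3% of the others' UMIs, and Ccl21a stood at 10.8 CPM in members against 53.2 CPM in the others.

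Functional lists were described by how many of their measured genes went the same way in both libraries. Over all 9513 genes, 23.8% were higher in members in both libraries and 28.7% lower in both. Of 23 measured endothelial genes outside the rule, 8 were higher in members in both libraries and 10 lower, none 2-fold, with a median log2 ratio of -0.03 in each library. Of 18 arterial genes 6 were higher in both and 9 lower (median -0.11 in young and -0.07 in old), and of 31 matrix genes 5 were higher in both and 16 lower (median -0.12 in each). Of 20 Notch pathway genes 3 were higher and 7 lower (-0.07 and -0.09), and of 18 BMP and TGF-beta genes 4 were higher and 9 lower (-0.07 and -0.08). Of 18 HOX genes, which carry position along the body axis, 1 was higher and 8 lower (-0.12 and -0.29). These medians lie beside -0.0035 and -0.03 over all genes. Matrix genes summed to 27143 CPM in young and 19859 CPM in old members. They summed to 26377 and 19654 CPM in cells of the second program and 33187 and 25245 CPM in the first. Arterial sums (27060 and 20838 CPM) also lay between the second (25237 and 20006 CPM) and the first (32131 and 26331 CPM). The HOX sum lay between in young and near the second program in old (636 and 640 CPM). Endothelial, BMP and TGF-beta sums lay below both programs in each library, the Notch sum in old. Of 4 measured capillary genes 2 were higher and 2 lower (1.22 and 0.29), and the 14 listed summed to 419 CPM in young members against 131 CPM in the others, 210 CPM of it from Fabp4, and to 183 against 143 CPM in old. Of 4 measured lymphatic genes 1 was higher and 2 lower (-0.53 and -0.03), and of 11 proliferation genes 2 were higher and 2 lower (0.36 and -0.16).

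In the lists of heat shock, leukocyte adhesion and clotting genes, more genes were higher than lower in both libraries. Of 12 heat shock genes 7 were higher in members in both libraries and none lower in both, with a median log2 ratio of 0.10 in each. Of 13 leukocyte adhesion and chemokine genes 8 were higher and 2 lower (0.02 and 0.15). Of 19 immediate early and dissociation stress genes 7 were higher and 3 lower, but the median was -0.08 in young and 0.15 in old. Of 18 flow-responsive and vasoactive genes 8 were higher and 5 lower, with medians of opposite sign (0.10 and -0.01). Klf2, the transcription factor that laminar flow induces, stood at 3055 against 2638 CPM in young (0.21, 0.15 to 0.27) and 2794 against 2302 CPM in old (0.28, 0.23 to 0.33). Edn1, the precursor of the vasoconstrictor endothelin, stood at 268 against 366 CPM in young (-0.45) and 155 against 162 CPM in old (-0.06). Nos3, which makes nitric oxide, stood at 312 against 329 CPM and 313 against 331 CPM, within counting error in both. Of 15 genes of clotting and fibrinolysis 8 were higher and 4 lower (0.11 and 0.10). Thbd, the thrombin receptor of endothelium, stood at 294 against 217 CPM in young (0.44) and 257 against 230 CPM in old (0.16, -0.02 to 0.33).

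Members differed among themselves most in a few abundant or unevenly spread genes. The Fano factor, the variance of the UMIs per cell over their mean, was taken over members thinned to 3000 UMIs, and its median over 3803 genes was 1.03 in young and 1.02 in old, near the value of 1 that counting alone gives. It was 18.0 and 11.2 for Fabp4 in members, against 1.91 and 2.62 in the other endothelial cells. It was 9.07 and 13.5 for Acta2 against 8.51 and 7.47 in the others. The 5 highest cells held 73.4% of the Acta2 UMIs of young members and 64.9% of those of old members. Mgp, the matrix Gla protein that limits calcification, had Fano factors of 10.9 and 9.71 in members against 8.36 and 6.06 in the others, and Gkn3 6.41 and 5.97 against 4.23 and 4.25. Among the 12 genes with the largest Fano factors, that of Fabp4 exceeded the value in the other endothelial cells by the most in both libraries.

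Between the libraries, the members of the old one held far more mRNA of the MHC class II genes, which present antigen. Cd74, the chaperone of class II, stood at 55.5 CPM in young members and 894 CPM in old members (log2 ratio 4.01, 3.59 to 4.46), and at 46.1 and 801 CPM in the other endothelial cells. H2-Ab1 stood at 31.9 and 410 CPM in members (3.68), and H2-Aa at 48.4 and 422 CPM (3.12). All 6 measured class II genes were at least 2-fold higher in old members, with a median log2 ratio of 3.405 in members and 3.08 in the other endothelial cells. A UMI of Cd74 was seen in 16.3% of young and 76.9% of old members, and in 4.02% and 41.8% of fibroblast barcodes, where its level was 4.48 and 111 CPM. The macrophage list, at 142 CPM in old members and 127 CPM in old fibroblast barcodes, moved between the libraries as well, and its part in the class II values was not tested.

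With all members 144 of 5725 genes were at least 2-fold higher in old (2.52%) and 151 at least 2-fold lower (2.64%). Without marked barcodes 70 of 5348 genes were 2-fold higher (1.31%) and 110 were 2-fold lower (2.06%), with a median log2 ratio of 0.04 over all. Igfbp6, a binding protein of insulin-like growth factors, stood at 28.3 and 121 CPM in members (2.10), against 33.6 and 69.8 CPM in the others and 3171 and 3219 CPM in fibroblast barcodes. Abi3bp, a matrix-associated protein, stood at 15.4 and 66.5 CPM (2.12), with 2.39 in the others. Cdkn1a, the cell cycle inhibitor p21, stood at 22.4 and 83.1 CPM in members (1.89, 1.17 to 2.68) and 18.7 and 29.4 CPM in the others (0.65), and 5 cells held 66.0% of its UMIs in old members.

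Immediate early genes, which stress and tissue handling induce within minutes, were lower in the old library. All 16 measured ones were lower in old members, 9 of them at least 2-fold, with a median log2 ratio of -1.10 in members and -1.22 in the other endothelial cells. Fos stood at 818 CPM in young members and 264 CPM in old ones (-1.63, -1.83 to -1.44), and Cyr61, a matricellular protein, at 720 and 216 CPM (-1.74, -1.95 to -1.52). Sox18, a transcription factor of vessel development, stood at 188 and 45.7 CPM (-2.04, -2.51 to -1.59), with -1.93 in the others. Vps8, a subunit of an endosomal tethering complex, stood at 175 and 9.15 CPM (-4.26), with -3.82 in the others. For Nme2, which was also among the 12 lowest, a near-identical paralog makes the counts uncertain.

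Matrix genes were lower in old members too: of 27 measured, 7 were higher and 20 lower, 6 of them at least 2-fold, with a median log2 ratio of -0.38, beside -0.42 in the other endothelial cells. Fbln5 stood at 903 and 343 CPM (-1.40), with -1.37 in the others, and Eln at 1618 and 791 CPM (-1.03), with -1.38 in the others. With marked barcodes, cells of the second program only were 382 of 877 others in young and 1058 of 1706 in old. The part of that change of mix in the old over young ratios of the others was not tested. Fbln5 went from 2363 to 1370 CPM in cells of the first program and from 704 to 377 CPM in cells of the second. Eln went from 2971 to 1464 CPM in the first and from 1513 to 683 CPM in the second. Col4a3, a basement membrane collagen chain, stood at 81.5 and 14.96 CPM (-2.44, -3.28 to -1.68), with -1.64 in the others (-1.84 to -1.45). Crispld2, a secreted protein higher in cells of the second program, stood at 90.9 and 21.6 CPM in members (-2.07, -2.77 to -1.41) and 72.2 and 53.7 CPM in the others (-0.43, -0.59 to -0.27). Pam, which amidates peptides, stood at 1688 and 618 CPM in members (-1.45) and 1333 and 697 CPM in the others (-0.93). For Crispld2 and Pam the intervals of the 2 ratios did not overlap, and with 1 library per age this difference was not tested. In cells of the second program Crispld2 went from 132 CPM in young to 66.3 CPM in old, and in cells of the first from 11.9 to 13.1 CPM.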

How the data were processed

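Single-cell 3′ RNA libraries of aortic endothelium, 1 young and 1 old, were analysed. The deposited values are raw UMI counts of 27998 genes in each cell barcode, made by the authors with Cell Ranger on GRCm38 per the submitters' processing notes. Its version is not stated there, nor is the annotation. From these counts the rule was applied to each barcode, UMIs were summed over cells of a kind within a library and scaled to CPM. Log2 ratios carry exact conditional binomial 95% intervals, shares Clopper-Pearson and levels Poisson intervals, all for counting error only. Genes needed 50 UMIs over the cell groups compared. Python 3.11.15 with numpy 2.4.6, scipy 1.17.1 and pandas 2.3.3 was used, and the ratio code was tested on simulated data. No doublet caller was run. Gene positions are those of a GRCm38 annotation matched by name.

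The members and lists were chosen with earlier results of these data known. Named genes were the 15 highest and 15 lowest against other endothelial cells and up to 10 above or below both programs, ranked by the interval bound nearest to 0, the 12 highest and lowest between ages, the 12 with the largest Fano factor, and up to 3 each way per list. Mitochondrial, ribosomal, haemoglobin, unnamed-model and sex-linked marker genes were left out of rankings. Of the genes picked this way, 1 is not reported here. The ranking was also applied without marked barcodes, chosen after seeing the data, as were the genes shown beside Nkx2-3 and the genes shown between the programs. Alternatives tried were other limits and depth minimums, thinning, filters on barcodes, equal weight per cell and a higher minimum of UMIs.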

Additional observations from a re-analysis of the deposited data

Results flagged for a closer look

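For 7 genes the log2 ratio of old over young went one way in members and the other way in the other endothelial cells, a difference that was not tested. With all barcodes, Lyz2 (6.80 in members, -0.16 in the others), Ccl6 (7.07, -0.22) and Retnla (5.69, -1.13) went opposite ways. Without marked barcodes Lyz2 (2.24 and 3.08) and Retnla (1.89 and 1.76) went the same way, and Ccl6 fell under the minimum of 50 UMIs. Actb stood at 0.36 in members and -0.38 in the others with all barcodes, and at -0.53 and -0.41 without the marked ones. Ube2c, a gene of dividing cells, stood at -2.96 and 2.44, but without marked barcodes members held 1 UMI of it in each library (-0.51, with an interval of -6.80 to 5.79) and the others stood at 2.38. Fabp4 stood at -1.77 in members and 0.52 in the others, and at -1.62 and 0.53 without marked barcodes. S100a6 stood at 0.14 and -0.26, and its ratio in members without marked barcodes was 0.03, with an interval of -0.09 to 0.15.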

How the results depend on the processing

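Over 11 alternatives, 73 of 106 values of shares and counts stayed near their main value and 33 moved. A turn of direction was not defined for shares and counts. The share of members in young and old was 8.58% and 9.58% at a limit of 1 UMI per 10000, 20.02% and 16.7% at a limit of 6, 9.79% and 8.78% with 5000 or more UMIs, 23.9% and 21.5% with programs read after thinning, and 20% and 21.9% without barcodes with 2 or more markers of another cell type, which left 7 and 25 members. It was 16.1% in young with at most 15000 UMIs and 12% in old without marked barcodes. Genes 2-fold higher and lower in members in both libraries numbered 5 and 5 with at most 15000 UMIs, 0 and 1 with a minimum of 200 UMIs, 21 and 44 with 5000 or more UMIs per cell, 32 and 8 after thinning, and 0 and 3 without other cell types' markers. There were 6 higher with equal weight per cell, 4 higher without marked barcodes, and 52 and 6 lower at limits of 1 and 6. Genes 2-fold higher in old members numbered 92 with 5 or more endothelial genes, 30 at 200 UMIs, 70 without marked barcodes and 14 without other markers, and those lower 44 at 200 UMIs and 16 without other markers. Without other markers 4 first-program genes stayed between the programs in old. Of 2126 values of single genes and lists, 1754 stayed near the main value. A turn of direction was read only for single genes whose main interval excluded 0, and not for list medians, and 23 values turned. Without other markers these were Bmp4 in old (0.47), Cldn5 (-0.23 young, -0.037 old), Hspb1 (-0.18, -0.30), Vim (-0.18, -0.32), Nfib (0.16) and Nrp1 (0.19) in young. After thinning, Cldn5 (-0.11), Hspb1 (-0.029), Acta2 (-0.49) and Serpina1b (-0.0036) turned in young, and Retnla between ages (-0.72). At a limit of 1, Acta2 (-1.08), Serpina1b (-0.96) and Serpina1e (-0.26) turned in young and Cldn5 in old (-0.047), at a limit of 6 Ccl21a in old (3.18), with equal weight Acta2 in young (-0.090), and without marked barcodes H2afz (-0.040 young, -0.0019 old) and Hmgb2 in old (-0.24). The cause was not tested. No paired analysis was possible because each age has 1 library. Depth limits the rule itself, since a cell with fewer UMIs more often shows none of a low gene.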

Other observations

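The members with a UMI of Fabp4 were compared with those without, for genes chosen after their values were seen and without marked barcodes. In old members, 5 UMIs of Cd36, a fatty acid receptor of capillary endothelium, lay in the 20 cells with Fabp4 and 1 UMI in the 209 cells without, a log2 ratio of 5.42 with a counting interval of 2.26 to 10.98. In young members each group held 2 UMIs of Cd36, in 15 and 120 cells. Pecam1 was slightly lower in cells with Fabp4, at 3264 against 3803 CPM in young and 2907 against 3370 CPM in old. With all members, Hmgb2, a chromatin protein of dividing cells, had 262 UMIs in the young library, and 133 of them lay in 1 cell.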
